A study of Homo sapiens with 8 samples.

Results

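The expression of 10 integrin subunit genes was followed through RNA-seq libraries of breast cells that overexpress the lncRNA *MALINC1*. They were taken by symbol from the deposited expression table, which holds 13842 genes, and all 10 were found: the alpha chains *ITGA2*, *ITGA3*, *ITGA5*, *ITGA6* and *ITGAV* and the beta chains *ITGB1*, *ITGB2*, *ITGB4*, *ITGB6* and *ITGB8*. An integrin is a cell-surface receptor made of 1 alpha and 1 beta chain, and the pair decides what the cell can hold. In breast epithelium, alpha6beta4 and alpha3beta1 hold laminin in the basement membrane, the former as the core of the hemidesmosome, and alpha2beta1 holds collagen. Alpha5beta1 and the alphav integrins hold fibronectin and related matrix proteins, and alphavbeta6 and alphavbeta8 release TGFB from its latent complex. Beta2 is the beta chain of leukocyte integrins.

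MCF10A is an immortalized human line of normal breast epithelium, and DCIS.COM is a line derived from it that models ductal carcinoma in situ. Both were stably transduced with the vector pLOC-*MALINC1* or with pLOC-empty as control and selected with blasticidin, and each of the 4 groups had 2 libraries of total RNA from subconfluent plates. MCF10A was grown in DMEM/F-12 medium with horse serum, epidermal growth factor, hydrocortisone, insulin and cholera toxin, whereas DCIS.COM was given the same base medium with horse serum alone, so that line and medium cannot be told apart. Nothing in the sources used here says whether the 2 libraries of a group came from separate cultures or transductions. The *p*-values then measure the spread between these libraries, which may be technical.

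*MALINC1*, the introduced gene, stood at 1.0 and 1.51 CPM (read counts scaled to library size) in MCF10A with pLOC-empty against 13.2 and 11.7 CPM with pLOC-*MALINC1*. In DCIS.COM it stood at 1.35 and 1.15 CPM with pLOC-empty against 24.5 and 19.2 CPM with pLOC-*MALINC1*. Each library labelled pLOC-*MALINC1* was above every control library. The reads on genes numbered between 20604377 and 37550457 per library, of which the signal recognition particle RNAs *RN7SL1* and *RN7SL2* took between 8.22% and 15.7%. All 7 markers of epithelium and all 7 of basal mammary cells were in the table. The basal markers did not move as one. In MCF10A, where 21.5% of all genes rose and 18.1% fell at an adjusted *p* below 0.01, 5 of the basal markers rose with pLOC-*MALINC1*. *TP63* was among them (log2 fold change 3.04), and *ACTA2* (-0.54) and *MME* (-0.84) fell. In DCIS.COM, where 16.4% of all genes rose and 16.7% fell, *KRT5* rose (0.38) and *KRT14* (-0.59), *KRT17* (-0.27), *ACTA2* (-0.56) and *MME* (-1.09) fell. Their summed level, carried by *KRT5* and *KRT17*, was between 18050 and 18120 CPM in MCF10A controls and between 24440 and 24960 CPM with pLOC-*MALINC1*, against 2332 to 2365 CPM and 2437 to 2525 CPM in DCIS.COM. Of 9 fibroblast markers 2 were in the table, and their sum was lower with pLOC-*MALINC1* in both lines, at 86.1 and 85.3 against 41.3 and 42.7 CPM in MCF10A and at 6.62 and 7.16 against 2.13 and 2.22 CPM in DCIS.COM. Both, *COL1A1* (-1.14) and *FAP* (-1.0), fell in MCF10A, and *FAP* fell in DCIS.COM (-2.87, adjusted *p* = 3.85e-09), where *COL1A1* had -0.32 (adjusted *p* = 0.0599). Of 6 endothelial markers 1, *PECAM1*, was in the table. It stood at 1.03 and 0.974 against 0.808 and 0.68 CPM in MCF10A (adjusted *p* = 0.197) and fell in DCIS.COM from 6.06 and 7.21 to 0.0874 and 0.177 CPM (-5.07, adjusted *p* = 1.13e-08), a larger change than that of any member. The part of these cell markers in the results was not tested.

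The promoters of 2 members are shown because they belong to the alternative epithelial partners of alphav, which changed differently. *ITGB8* had the largest rise in DCIS.COM, and *ITGB6*, which fell in MCF10A, had a promoter poor in G and C. Each stretch is the 250 bases before the start of the canonical transcript of GENCODE in the GRCh37 (hg19) genome, 5′ to 3′ on the strand of the gene. Capitals mark matches, on either strand, to the AP-1 site TGACTCA, the GC box GGGCGG, the TEAD site GGAATG or the PU.1 core GAGGAA, and the last 2 share bases where the letters GAGGAATG occur.
ITGB8, chr7:20370273-20370522, plus strand: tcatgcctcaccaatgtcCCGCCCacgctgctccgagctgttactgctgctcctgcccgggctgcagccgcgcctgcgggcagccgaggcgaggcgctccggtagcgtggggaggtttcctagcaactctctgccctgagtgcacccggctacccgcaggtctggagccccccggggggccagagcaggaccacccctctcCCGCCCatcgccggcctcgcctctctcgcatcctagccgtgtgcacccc
ITGB6, chr2:161056784-161057033, minus strand: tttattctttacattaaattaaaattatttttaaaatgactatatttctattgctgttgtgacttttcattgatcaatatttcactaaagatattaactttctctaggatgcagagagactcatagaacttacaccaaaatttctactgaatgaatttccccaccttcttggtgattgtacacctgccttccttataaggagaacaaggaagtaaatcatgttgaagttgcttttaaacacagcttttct

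The *ITGB6* stretch held 30.0% G and C and 0 CpG pairs, and the *ITGB8* stretch held 71.2% and 21 CpG pairs. The median was 65.6% over the promoters of all genes of the table that could be placed, of which 9.15% were below 50%. Among 12874 such promoters, 70.3% held the GC box, of which the *ITGB8* stretch held 2 matches. The AP-1 site was in 2.59% of promoters, the TEAD site in 9.09% and the PU.1 core in 22.1%. The *ITGB6* stretch held no match to any of the 4 motifs, and *ITGB8* no match to the last 3. These matches describe letters in a window and show no binding.

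All 10 members differed between pLOC-*MALINC1* and pLOC-empty in MCF10A, and 8 did in DCIS.COM. The laminin and collagen chains *ITGA2*, *ITGA3*, *ITGA6* and *ITGB4* rose in both lines, as did *ITGB8*. The fibronectin and vitronectin chains *ITGA5* and *ITGAV* fell in both, as did *ITGB2*. *ITGB1* and *ITGB6* fell in MCF10A, whereas in DCIS.COM neither passed the test. Changes are given as log2FC, the log2 fold change of pLOC-*MALINC1* over pLOC-empty from limma, with its standard error (SE). Calls were made with limma across all genes at an adjusted *p* (Benjamini-Hochberg) below 0.01, and a DEG was in addition over 2-fold changed. In MCF10A, 39.6% of all genes passed, 21.5% upwards and 18.1% downwards, beside 5 and 5 of the 10 members. In DCIS.COM, 33.2% passed, 16.4% upwards and 16.7% downwards, beside 5 and 3 members. DEGs made up 5.5% of all genes in MCF10A, 2.99% upwards and 2.51% downwards, beside 1 member, *ITGB2*, downwards. In DCIS.COM they made up 4.53%, 1.44% upwards and 3.08% downwards, beside *ITGB8* upwards and *ITGB2* downwards. The libraries of the 2 vectors did not overlap for 10 members and 76.5% of all genes in MCF10A, and for 9 members and 73% of all genes in DCIS.COM. The median log2FC over the members was 0.15 and 0.14 in the 2 lines, against 0.00 and 0.01 over all genes. In MCF10A this median falls in a gap between the 5 members that rose, by 0.57 or more, and the 5 that fell, to -0.27 or lower. When the DCIS.COM libraries were fitted without those of MCF10A, the changes kept their size but 4 members instead of 8 passed, since *ITGA3*, *ITGA5*, *ITGA6* and *ITGB4* had adjusted *p* between 0.0101 and 0.0218.

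**Figure D1:**
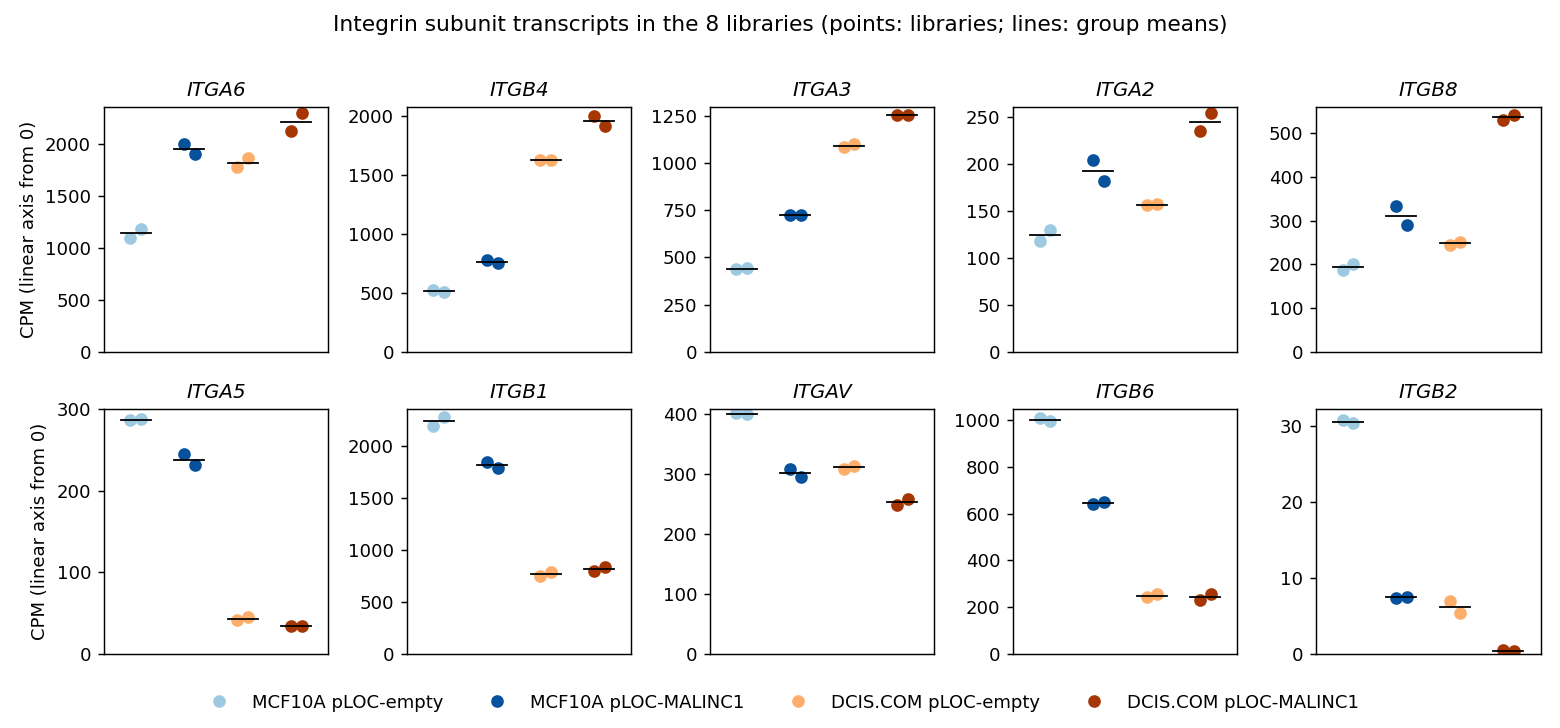
CPM of each member (vertical axes, linear and starting at 0) in the 8 libraries, with points for libraries, lines for the means of 2 and colours for the 4 groups. The upper row holds the 5 members that were higher with pLOC-MALINC1 in both lines, such as ITGB8 at 529 and 542 CPM in DCIS.COM, and the lower row the other 5, of which ITGB2 stood below 1 CPM in DCIS.COM with pLOC-MALINC1.

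*ITGA6* (chromosome 2, 173292082 to 173371187, plus strand) and *ITGB4* (chromosome 17, 73717408 to 73753899, plus strand) encode the 2 chains of the hemidesmosome integrin. *ITGA6* stood at 1096 and 1188 CPM in MCF10A with pLOC-empty, 2004 and 1902 CPM in its pLOC-*MALINC1* libraries, and 1778 and 1868 CPM in DCIS.COM with pLOC-empty against 2130 and 2301 CPM with pLOC-*MALINC1*. In both lines every pLOC-*MALINC1* library was above every control library. The log2FC of *ITGA6* was 0.77 (± 0.052 SE, adjusted *p* = 1.39e-07) in MCF10A and 0.28 (± 0.052 SE, adjusted *p* = 0.000767) in DCIS.COM. The latter call rests on single libraries, as the adjusted *p* was 0.0118 without replicate 2 of pLOC-*MALINC1* and 0.0178 without replicate 1 of pLOC-empty in DCIS.COM. *ITGB4* stood at 526 and 508 CPM, 779 and 755 CPM, 1628 and 1631 CPM, and 2006 and 1918 CPM in the same order. It was higher in each DCIS.COM library than in any MCF10A library, and higher with pLOC-*MALINC1* within each line. The log2FC of *ITGB4* was 0.57 (± 0.036 SE, adjusted *p* = 9.83e-08) in MCF10A and 0.27 (± 0.036 SE, adjusted *p* = 7.56e-05) in DCIS.COM.

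*ITGA3* (chromosome 17, 48133332 to 48167845, plus strand) encodes the alpha chain of the laminin receptor alpha3beta1. It stood at 438 and 442 CPM in MCF10A with pLOC-empty, 728 and 728 CPM in its pLOC-*MALINC1* libraries, and 1084 and 1102 CPM in DCIS.COM with pLOC-empty against 1258 and 1258 CPM with pLOC-*MALINC1*. No group overlapped another. The log2FC was 0.73 (± 0.030 SE, adjusted *p* = 2.44e-09) in MCF10A and 0.20 (± 0.030 SE, adjusted *p* = 0.00017) in DCIS.COM. *ITGA2* (chromosome 5, 52285170 to 52390609, plus strand), the alpha chain of the collagen receptor, stood at 118 and 130 CPM, 204 and 181 CPM, 156 and 157 CPM, and 234 and 254 CPM in that order. Its libraries with pLOC-*MALINC1* lay above the controls in each line. *ITGA2* rose by a log2FC of 0.64 in both lines (SE 0.058, adjusted *p* = 2.19e-06 and 2.55e-06). *ITGB8* (chromosome 7, 20370325 to 20455377, plus strand), which pairs with alphav to activate latent TGFB, stood at 188 and 200 CPM, 333 and 289 CPM, 245 and 251 CPM, and 529 and 542 CPM. It was the only member that was a DEG upwards, and this in DCIS.COM, with a log2FC of 1.11 (± 0.055 SE, adjusted *p* = 1.13e-08) against 0.68 (adjusted *p* = 7.65e-07) in MCF10A.

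*ITGA5* (chromosome 12, 54789045 to 54813050, minus strand) and *ITGB1* (chromosome 10, 33176201 to 33294720, minus strand) encode the fibronectin receptor, and beta1 is also the partner of alpha2, alpha3, alpha6 and alphav. *ITGA5* stood at 286 and 288 CPM in MCF10A with pLOC-empty, 244 and 232 CPM in its pLOC-*MALINC1* libraries, and 40.8 and 44.6 CPM in DCIS.COM with pLOC-empty against 34.4 and 34.3 CPM with pLOC-*MALINC1*. The lines lay far apart, and within each line the pLOC-*MALINC1* libraries were the lower. The log2FC of *ITGA5* was -0.27 (± 0.045 SE, adjusted *p* = 0.000303) in MCF10A and -0.31 (± 0.045 SE, adjusted *p* = 0.000117) in DCIS.COM, and the former was lost with no trend in the spread (adjusted *p* = 0.0117). *ITGB1* stood at 2190.4 and 2279 CPM, 1841 and 1782 CPM, 751 and 784 CPM, and 794 and 830.0 CPM in that order. In MCF10A the pLOC-*MALINC1* libraries were the lower, and in DCIS.COM they were the higher by a margin that did not pass the test. *ITGB1* fell by 0.30 on the log2 scale in MCF10A (adjusted *p* = 4.54e-05) and had a log2FC of 0.08 (95% interval -0.01 to 0.17, adjusted *p* = 0.117) in DCIS.COM, where quantile normalization and totals without normalization factors gave 0.21 and 0.20 and passed.

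*ITGAV* (chromosome 2, 187454737 to 187545628, plus strand) encodes the alpha chain shared, among the members, by beta1, beta6 and beta8. It stood at 401 and 399 CPM in MCF10A with pLOC-empty, 308 and 295 CPM in its pLOC-*MALINC1* libraries, and 308 and 313 CPM in DCIS.COM with pLOC-empty against 249 and 258 CPM with pLOC-*MALINC1*. *ITGAV* fell in both lines, with log2FC of -0.41 (± 0.033 SE, adjusted *p* = 8.05e-07) and -0.30 (± 0.033 SE, adjusted *p* = 1.62e-05). *ITGB6* (chromosome 2, 160956178 to 161056824, minus strand), its epithelial partner, stood at 1009.9 and 995 CPM, 643 and 648 CPM, 243 and 255 CPM, and 229.5 and 255 CPM. *ITGB6* fell in MCF10A (log2FC -0.63, SE 0.044, adjusted *p* = 2.1e-07). In DCIS.COM the groups overlapped, and the log2FC was -0.04 (95% interval -0.14 to 0.05, adjusted *p* = 0.46), with the opposite sign when no normalization factors were used.

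*ITGB2* (chromosome 21, 46305868 to 46351904, minus strand) had the lowest level of all members per kb of exon in every group. It stood at 30.8 and 30.4 CPM in MCF10A with pLOC-empty against 7.41 and 7.48 CPM with pLOC-*MALINC1*. In DCIS.COM it stood at 7.0 and 5.39 CPM with pLOC-empty against 0.437 and 0.384 CPM with pLOC-*MALINC1*, which are 150, 113, 15 and 13 reads. The log2FC was -2.03 (4.08-fold lower, SE 0.14, adjusted *p* = 1.92e-07) in MCF10A and -3.69 (12.9-fold lower, SE 0.14, adjusted *p* = 1.19e-09) in DCIS.COM. It was a DEG in each line under every alternative tried. The deposited log2 scale holds a small added count, which understates the change of a gene this low. With so few reads the size in DCIS.COM depends on the pseudocount, at -2.87 and -2.34 with 0.5 and 1 CPM. *ITGB2-AS1*, a lncRNA on the opposite strand that begins upstream of the canonical start of *ITGB2* at 46340966 and shares 303 nt of exon with it, stood at 2.28 and 1.55 CPM, 0.947 and 0.944 CPM, 2.71 and 2.58 CPM, and 0.961 and 0.739 CPM in the same order. Both genes of the locus were thus lower with pLOC-*MALINC1*, with log2FC of -0.94 (adjusted *p* = 0.00363) and -1.57 (adjusted *p* = 0.000107) for *ITGB2-AS1*. The strand setting of the read counting is not given in the sources used here, so reads of the shared bases cannot be told apart.

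Since beta2 is known as a leukocyte chain, leukocyte markers were read beside it. Of 15 such markers 6 were in the table, and the others, among them *PTPRC*, *CD3E* and *SPI1*, were not analysed here. The summed level of the 6 was 160.8 and 160.5 CPM in MCF10A with pLOC-empty, 142.2 and 139.7 CPM in its pLOC-*MALINC1* libraries, and 16.4 and 19.4 CPM in DCIS.COM with pLOC-empty against 24.2 and 25.3 CPM with pLOC-*MALINC1*. Most of the sum in MCF10A was *LCP1*, an actin-bundling protein also made by epithelial tumour lines, at a mean of 117 CPM with pLOC-empty. In MCF10A 0 of the 6 rose and 1 fell, and in DCIS.COM 3 rose and 1 fell. Over all genes 21.5% rose and 18.1% fell in MCF10A, and 16.4% and 16.7% in DCIS.COM. *PECAM1*, the endothelial marker that leukocytes also carry, and the fibroblast marker *FAP* fell together with *ITGB2* in DCIS.COM. Their part in the result for *ITGB2* was not tested. Each library is bulk RNA from a culture of 1 epithelial line, in which fewer cells that express a gene and less RNA per cell cannot be told apart.

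**Figure D2:**
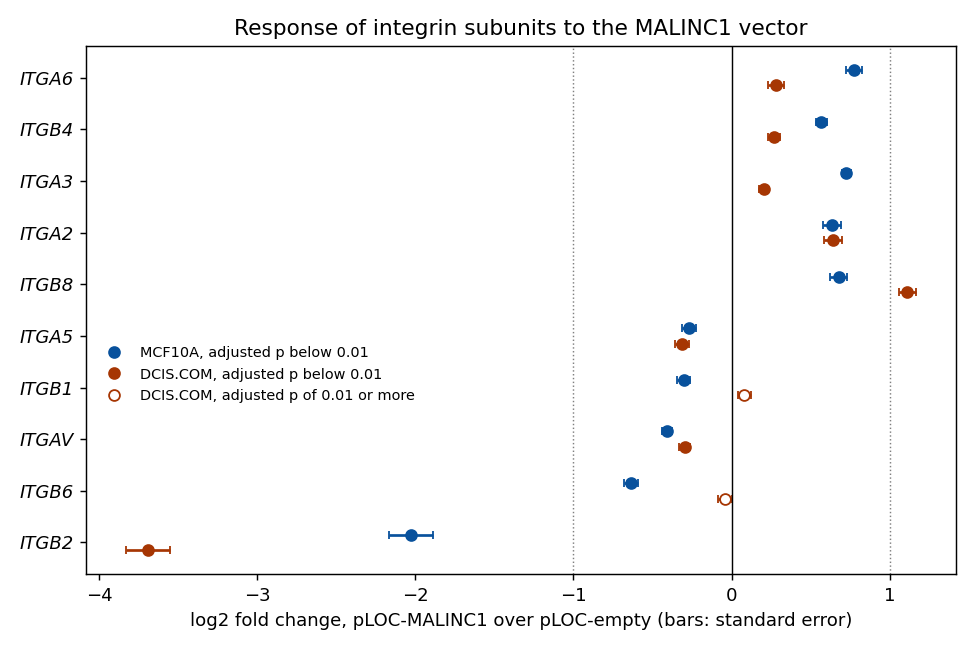
Log2FC of each member, pLOC-MALINC1 over pLOC-empty (horizontal axis; bars are SEs), in MCF10A (blue) and DCIS.COM (brown), with filled points for adjusted p below 0.01 and dotted lines at 2-fold. The points run from -3.69 for ITGB2 to 1.11 for ITGB8, both in DCIS.COM, and the open points are ITGB1 at 0.08 and ITGB6 at -0.04, of which the latter turned positive without normalization factors.

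The 2 vector comparisons share no library, but for each gene their calls share 1 estimate of the spread from all 8 libraries. Of the 10 members, 8 passed in both lines, 5 upwards and 3 downwards, and 0 passed in opposite directions. With only the DCIS.COM libraries in the fit, 4 members instead of 8 passed in that line. Over all genes 17.2% passed in both lines, with 750 genes upwards in both, 550 downwards in both and 1081 in opposite directions. Thus 80% of the members and 9.39% of all genes changed alike in both lines, and 0% and 7.81% changed oppositely. Counting signs without a test, 9 of 10 members and 51.4% of all genes had the same sign in both. Of the 7 other integrin subunits in the table, most of them at low levels, 0 passed in both lines and 3 had the same sign. The 10 members were chosen with earlier results of these data known and were not matched in level to all genes. The shares are therefore set side by side only.

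The sizes differed between the lines. The difference of the responses, DCIS.COM minus MCF10A, passed for 7 of the 10 members, 3 upwards and 4 downwards, and for 35.9% of all genes, 15.6% upwards and 20.3% downwards. It was over 2-fold for 1 member, downwards, and for 9.2% of all genes, 3.98% upwards and 5.22% downwards. The response was the smaller in DCIS.COM for the 3 laminin chains, with differences in log2FC of -0.52 for *ITGA3* (± 0.043 SE, adjusted *p* = 9.65e-07), -0.49 for *ITGA6* (± 0.073 SE, adjusted *p* = 0.000135) and -0.30 for *ITGB4* (± 0.051 SE, adjusted *p* = 0.000423). For *ITGA6* and *ITGB4* this depended on the scaling, as quantile normalization gave -0.25 (adjusted *p* = 0.055) and -0.05 (adjusted *p* = 0.377). The *ITGB4* call was also lost with no trend (adjusted *p* = 0.013) and without normalization factors (-0.17, adjusted *p* = 0.042). The response was the larger in DCIS.COM for *ITGB8*, with a difference of 0.43 (adjusted *p* = 0.000609), which a fit with no trend in the spread lost (adjusted *p* = 0.0229). For *ITGB6* and *ITGB1*, which fell in MCF10A and did not pass in DCIS.COM, the differences were 0.59 (adjusted *p* = 8.76e-06) and 0.38 (adjusted *p* = 0.000126). For *ITGB2* the difference was -1.66 (adjusted *p* = 2.43e-05), but -0.90 with a pseudocount of 0.5 CPM and -0.44 (adjusted *p* = 0.0238) with 1 CPM. *ITGA2* had a difference of 0.01 (95% interval -0.17 to 0.19), *ITGA5* of -0.04 (-0.18 to 0.10) and *ITGAV* of 0.11 (0.01 to 0.22), none of which passed (adjusted *p* = 0.962, 0.607 and 0.0637), though *ITGAV* did with 0.19 in totals without *RN7SL1* and *RN7SL2* and 0.24 without normalization factors.

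With the empty vector, DCIS.COM and MCF10A differed in all 10 members, 5 higher and 5 lower, where 73.9% of all genes passed, 37.9% higher and 36% lower. DEGs were 6 members, 2 higher and 4 lower, and 28.6% of all genes, 15.6% higher and 13% lower. The libraries did not overlap for 10 members and 90.1% of all genes. *ITGB4* (log2 difference 1.66, DCIS.COM over MCF10A) and *ITGA3* (1.31) were over 2-fold higher in DCIS.COM. *ITGA5* (-2.75), *ITGB2* (-2.30), *ITGB6* (-2.01) and *ITGB1* (-1.54) were over 2-fold lower. *ITGA6*, *ITGB8* and *ITGA2* were higher by 0.68, 0.35 and 0.34 on the log2 scale, and *ITGAV* had a difference of -0.36. With pLOC-*MALINC1*, all 10 again passed in the same direction, where 73% of all genes did, 35.7% higher and 37.2% lower, and none overlapped, as for 90% of all genes. DEGs were 5 members, 1 higher and 4 lower, and 26.6% of all genes, 14.4% higher and 12.2% lower. The differences were then 1.36 for *ITGB4*, 0.79 for *ITGA3*, -2.79 for *ITGA5*, -3.97 for *ITGB2*, -1.42 for *ITGB6*, -1.16 for *ITGB1*, 0.18 for *ITGA6*, 0.79 for *ITGB8*, 0.34 for *ITGA2* and -0.25 for *ITGAV*. The calls of *ITGA6* and *ITGAV* in this last comparison were lost in some alternatives, *ITGA6* without replicate 2 of pLOC-*MALINC1* of either line (adjusted *p* = 0.0691 for DCIS.COM and 0.061 for MCF10A) or a DCIS.COM control (0.0124 and 0.0125), and *ITGAV* with totals that leave out *RN7SL1* and *RN7SL2* (-0.07, adjusted *p* = 0.0578). These comparisons share their libraries with the vector comparisons, so the values are set side by side only.

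Levels of different genes were compared as CPM per kb of annotated exon. Among the alpha chains *ITGA6* was first and *ITGA3* second in all 4 groups, and *ITGA6* alone made up 58.7% ± 1.1 (SD, n = 2) of the alpha sum in MCF10A with pLOC-empty and 66.6% ± 0.26 with pLOC-*MALINC1*. In DCIS.COM its share was 64.0% ± 0.51 and 65.2% ± 0.98. *ITGA5* followed them in MCF10A and was last in DCIS.COM, where its share was 1.36% ± 0.049 with pLOC-empty and 0.916% ± 0.037 with pLOC-*MALINC1*. *ITGA2* and *ITGAV* held the remaining places and changed order with the group and with the length used. The shares also depend on that length. By the canonical transcript, *ITGA6* made up 46.0% and 55.2% of the alpha sum in MCF10A and 51.3% and 53.4% in DCIS.COM.

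The order of the beta chains differed between the lines. In MCF10A with pLOC-empty the order per kb was *ITGB6* (173 ± 1.8 CPM per kb), *ITGB1* (153 ± 4.3), *ITGB4* (76.5 ± 1.9), *ITGB8* (12.8 ± 0.59) and *ITGB2* (4.19 ± 0.033). With pLOC-*MALINC1* it was *ITGB1* (124 ± 2.9), *ITGB4* (113 ± 2.5) and *ITGB6* (112 ± 0.61), the last 2 of which overlapped between libraries, before *ITGB8* (20.5 ± 2.0) and *ITGB2*. In DCIS.COM *ITGB4* was first in both groups, at 241 ± 0.39 and 290.2 ± 9.2 CPM per kb, or 68.1% ± 0.58 and 68.6% ± 1.6 of the beta sum. With the length of the canonical transcript in place of all exons, *ITGB1* was first in both MCF10A groups, *ITGB6* second, and *ITGB4* stayed first in DCIS.COM. By this length *ITGB4* made up 9.38% and 16.4% of the beta sum in MCF10A and 48.9% and 50.3% in DCIS.COM. *ITGB8* then stood above *ITGB6* in DCIS.COM with pLOC-*MALINC1*, at 59.71 against 52.15 CPM per kb. *ITGB1* holds 14561 nt of annotated exon but 3735 nt in its canonical transcript, which is why its place moved. *ITGB6* shares 966 nt of exon with a lncRNA on the same strand, whose reads cannot be told apart from its own.

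**Figure D3:**
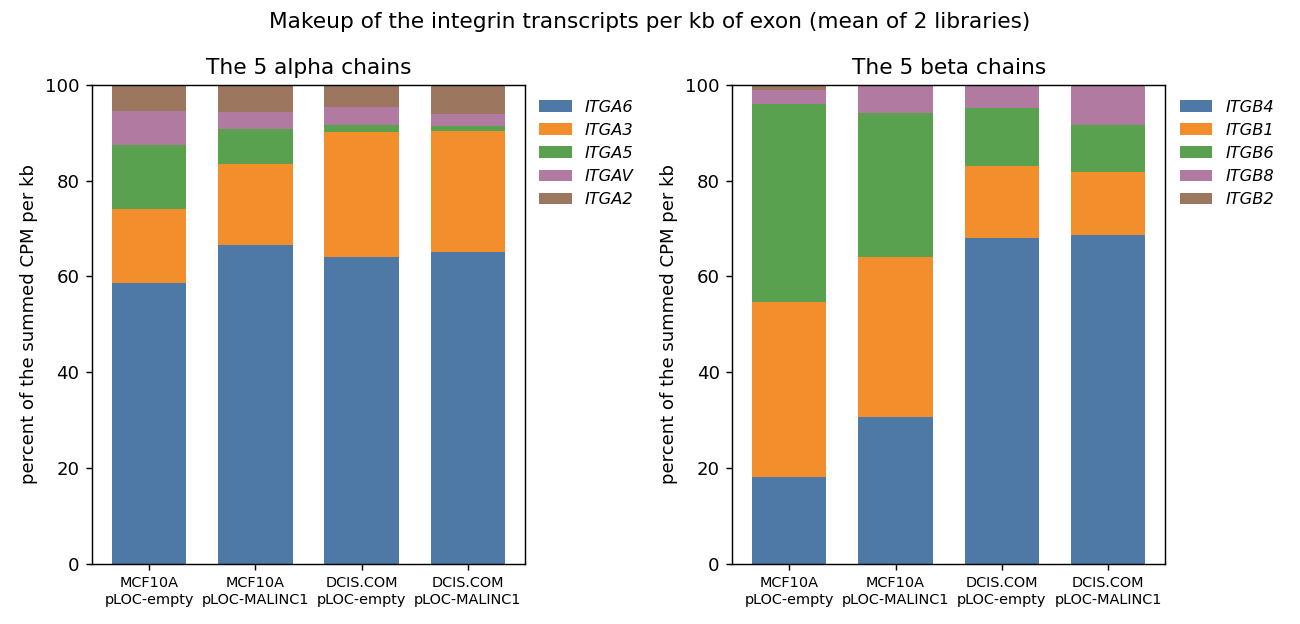
Share of each chain in the summed CPM per kb (vertical axes, percent, mean of 2 libraries) of the 5 alpha chains (left) and the 5 beta chains (right) in the 4 groups. ITGA6 holds between 58.7% and 66.6% of the alpha sum everywhere, whereas ITGB4 holds 18.2% and 30.6% of the beta sum in MCF10A and 68.1% and 68.6% in DCIS.COM.

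Ratios per kb within a library put these shifts in terms of receptor chains. *ITGB4* over *ITGB1* was 0.517 and 0.48 in MCF10A with pLOC-empty and 0.911 and 0.912 with pLOC-*MALINC1*, and 4.67 and 4.48 against 5.44 and 4.98 in DCIS.COM. The ratio was thus higher with pLOC-*MALINC1* in every library of either line. *ITGA5* over *ITGA3* was 0.868 and 0.865 against 0.446 and 0.423 in MCF10A, and 0.05 and 0.0538 against 0.0363 and 0.0363 in DCIS.COM, lower with pLOC-*MALINC1* throughout. *ITGB8* over *ITGB6* was 0.0709 and 0.0768 against 0.198 and 0.17 in MCF10A, and 0.384 and 0.376 against 0.88 and 0.813 in DCIS.COM. The summed alpha chains stood at 291 ± 11 and 439 ± 14 CPM per kb in MCF10A and at 426 ± 12 and 509 ± 20 in DCIS.COM. The summed beta chains were 420.2 ± 1.1 in MCF10A with pLOC-empty against 371 ± 6.8 with pLOC-*MALINC1*, and 354 ± 3.6 against 423 ± 3.8 in DCIS.COM. These ratios and sums use the length of all exons. Their size depends on that length, and so can which of the alpha and beta sums is the larger. By the canonical transcript, *ITGB8* was above *ITGB6* in DCIS.COM with pLOC-*MALINC1* (59.71 against 52.15 CPM per kb). *ITGB4* and *ITGB1* were then at 276.4 and 205.5 CPM per kb in DCIS.COM with pLOC-empty, against 241 and 52.7 by all exons. The ratios and sums were not tested and are given as values.

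The members were read as 2 sets, the 5 that rose and the 5 that fell with pLOC-*MALINC1* in MCF10A. Over the 8 libraries these sets opposed each other. *ITGA2*, *ITGA3*, *ITGA6*, *ITGB4* and *ITGB8* correlated with one another in all 10 pairs, with Pearson's r of log2 CPM between 0.674 and 0.981. *ITGA5*, *ITGAV*, *ITGB1*, *ITGB2* and *ITGB6* did so in all 10 pairs, with r between 0.72 and 0.993. All 25 pairs across the sets were negative, between -0.994 and -0.521. The sets were made from changes in libraries that are among these 8, so part of their opposition was built in. The 8 libraries form 4 groups of 2 and share line, medium and vector, so these values describe the group pattern and carry no test.

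**Figure D4:**
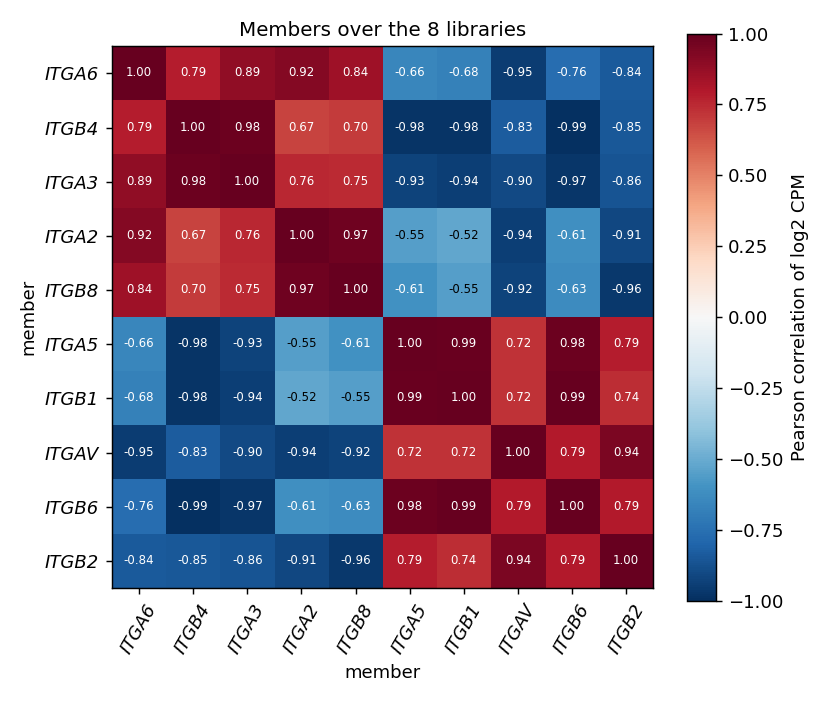
Pearson's r of log2 CPM over the 8 libraries for each pair of members (rows and columns; colour from -1 to 1). The 2 blocks on the diagonal, which are the sets formed by the changes in MCF10A, hold r of 0.674 or more. The blocks off it hold r of -0.521 or less.

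For the 2 members that were DEGs, the genes most alike in pattern over the 8 libraries were found among 11450 genes. For *ITGB2* these were *ITPK1*, an inositol phosphate kinase (r = 0.998), *SPAG5*, a protein of the mitotic spindle (r = 0.996), and *FOSL2*, an AP-1 subunit (r = 0.994). *FOSL2* stood at a mean of 137 CPM in MCF10A with pLOC-empty against 76.7 CPM with pLOC-*MALINC1*, and at 65.9 and 15.1 CPM in DCIS.COM. Of all genes compared, 142 had r above 0.95 with *ITGB2*. For *ITGB8* they were *FOXP1*, a transcription factor (r = 0.996), *PYGB*, a glycogen phosphorylase (r = 0.991), and *ZFP91*, a zinc finger protein (r = 0.99), and 48 genes had r above 0.95. The levels of *FOXP1* had a narrower range, with means of 49.0, 58.8, 54.1 and 70.6 CPM in the same order.

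Of 16 other integrin subunits, 7 were in the table, and 0 of them rose in either line. All genes had 21.5% that rose and 18.1% that fell in MCF10A, and 16.4% and 16.7% in DCIS.COM. In MCF10A 3 of the 7 subunits fell, namely *ITGB3* (log2FC -1.78, adjusted *p* = 9.46e-06), the only DEG among them, *ITGA1* (-0.82) and *ITGB5* (-0.34). *ITGB3*, like *ITGB5* a partner of alphav, stood at only 1.45 and 1.46 CPM with pLOC-empty against 0.306 and 0.453 CPM with pLOC-*MALINC1*. In DCIS.COM the 2 that fell were the DEGs *ITGA10* (-2.07, adjusted *p* = 7.97e-06), a collagen receptor chain at 8.07 and 7.30 against 2.04 and 1.54 CPM, and *ITGA4* (-1.56, adjusted *p* = 0.000202), near 1 CPM and less.

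The matrix ligands changed in both directions in each line. Of 21 matrix ligands in the table, out of 30 listed, 5 rose and 10 fell in MCF10A, and 8 rose and 6 fell in DCIS.COM. Changes in both lines were in opposite directions for 9 genes and in the same direction for 3, beside 0 and 8 for the members. *FN1*, the fibronectin gene and main ligand of alpha5beta1, stood at 1489.6 and 1554 CPM in MCF10A with pLOC-empty against 382 and 353 CPM with pLOC-*MALINC1* (log2FC -2.05, adjusted *p* = 1.06e-11). In DCIS.COM it rose from 39.1 and 40.9 CPM to 72.7 and 71.3 CPM (0.85, adjusted *p* = 1.18e-08). *THBS1*, the thrombospondin gene, rose in MCF10A (1.56) and fell in DCIS.COM (-0.98).

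Among the basement membrane genes, *COL4A1* and *COL4A2* fell in MCF10A (-1.27 and -1.01) and rose in DCIS.COM (0.34 and 0.20). *LAMA4* did the same (-1.06 and 0.25). *FBN1* (-1.57), *POSTN* (-1.52) and *COL1A1* (-1.14) were the other matrix DEGs of MCF10A. *LAMA3* and *LAMB3*, which encode laminin chains, fell in DCIS.COM, where *LAMA3* was a DEG (adjusted *p* = 2.64e-09) and *LAMB3* fell by 0.89 on the log2 scale. In MCF10A *LAMB3* rose (0.21) and *LAMA3* had a log2FC of 0.09 (adjusted *p* = 0.0811). *CCN1*, a matricellular ligand of alphav integrins, fell in DCIS.COM (-1.02).

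Of 12 cell-surface and latent TGFB ligands, 3 rose and 4 fell in MCF10A, and 2 rose and 2 fell in DCIS.COM. Beside these counts, 21.5% of all genes rose and 18.1% fell in MCF10A, and 16.4% and 16.7% in DCIS.COM. *ICAM1*, a ligand of beta2 integrins, rose in MCF10A (0.38, adjusted *p* = 0.00469) and fell in DCIS.COM (-1.20), and the complement gene *C3* fell in both (-0.53 and -1.87). The other *ICAM* and *JAM* family genes of the list, *ICAM3*, *ICAM5*, *F11R* and *JAM3*, passed in neither line, with log2FC in DCIS.COM of 0.34, -0.74, 0.04 and 0.45. *L1CAM*, an adhesion molecule, rose in MCF10A (1.22). Of 7 hemidesmosome partners, 4 rose and 1 fell in MCF10A and 5 rose and 2 fell in DCIS.COM, beside the same shares of all genes. *DST*, *KRT5* and *LAD1* rose in both lines, by 0.80, 0.51 and 0.86 (log2FC) in MCF10A against 0.46, 0.38 and 0.76 in DCIS.COM. *CD151* fell in MCF10A (-0.41, adjusted *p* = 8.4e-07) and rose in DCIS.COM (0.13). *PLEC* had a log2FC of -0.07 in MCF10A (adjusted *p* = 0.214) and rose in DCIS.COM (0.48). *KRT14*, the basal keratin, rose in MCF10A (1.01) and fell in DCIS.COM (-0.59), where it stood at 33.6 and 32.5 CPM with pLOC-empty. *COL17A1*, the collagen of the hemidesmosome, fell in DCIS.COM (-0.76) and had a log2FC of 0.04 in MCF10A (adjusted *p* = 0.333).

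Inside the cell, 3 of 14 activators and inactivators rose and 5 fell in MCF10A, and 5 rose and 2 fell in DCIS.COM. The kindlin genes, whose products bind beta chains, split in both lines. *FERMT1* rose (0.62 and 0.27) and *FERMT2* fell (-0.88 and -0.23). *KANK2*, a talin-binding protein, fell in MCF10A (-1.30) and rose in DCIS.COM (0.45), and *TLN2*, a talin gene, rose in DCIS.COM (1.01), where *DAB2*, an endocytic adaptor of integrins, fell (-1.39). Of 27 focal adhesion adaptors and kinases, 6 rose and 5 fell in MCF10A, and 10 rose and 6 fell in DCIS.COM. In MCF10A these counts were close to the shares of all genes. The kinase *SRC* rose in both (1.36 and 0.39), and so did the paxillin relative *LPXN* (0.70 and 2.18). The tensin gene *TNS1* fell in MCF10A (-1.80) and rose in DCIS.COM (1.61), though from 0.233 and 0.191 to 0.786 and 0.798 CPM. *NEDD9* fell in MCF10A (-1.51), and *TNS4* fell in DCIS.COM (-1.05).

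Of 14 membrane partners in the table, 8 rose and 2 fell in MCF10A, and 0 rose and 6 fell in DCIS.COM. Among all genes 21.5% rose and 18.1% fell in MCF10A, and 16.4% and 16.7% in DCIS.COM. The tetraspanin *CD82* rose in MCF10A from 13.0 and 12.9 to 54.7 and 54.7 CPM (2.07, adjusted *p* = 1.4e-11) and fell in DCIS.COM (-0.57), and the syndecan *SDC1* rose in MCF10A (1.21), with a log2FC of 0.01 in DCIS.COM (adjusted *p* = 0.819). The difference of the responses passed for 9 of the 14, all lower in DCIS.COM, beside 35.9% of all genes, with 20.3% downwards.

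**Figure D5:**
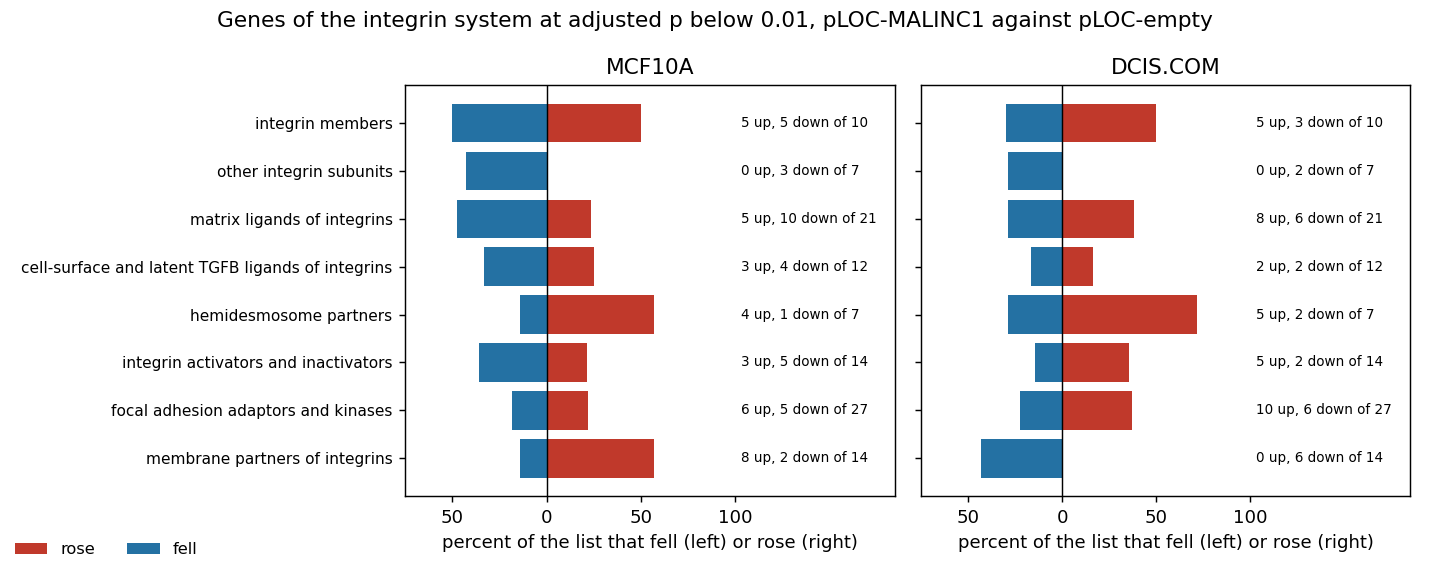
Percent of each gene list that fell (blue, to the left) or rose (red, to the right) at an adjusted p below 0.01 with pLOC-MALINC1 in MCF10A (left panel) and DCIS.COM (right panel), with the counts printed beside the bars. The members rose in 5 of 10 in both lines, and the membrane partners rose in 8 of 14 in MCF10A and 0 of 14 in DCIS.COM; over all genes 21.5% and 16.4% rose.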

How the data were processed

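RNA was sequenced as paired-end reads from 8 libraries, 2 in each of 4 groups (ScriptSeq v2 kit). Per the labels and the study's methods, reads were mapped to hg19 and assigned by featureCounts to UCSC gene models. The authors then normalized in edgeR and deposited the values as log2 CPM for 13842 genes, 346 of them without a symbol. The deposited log2 values were read back to whole reads, which all low values gave within 0.01 of a read, and a gene without reads stood at 0.0713 CPM. The scaling between the deposited libraries equalled TMM factors computed from these reads, and nothing else was rescaled. The CPM of single libraries in the text were computed from the recovered reads. The 10 members and all gene lists were chosen with earlier results of these data known.

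For all genes at once, a linear model with 4 group means and 5 contrasts was fitted to the deposited log2 CPM by limma (version 3.58.1, R 4.3.3). Moderated variances followed a trend with expression, p-values were adjusted by Benjamini-Hochberg over the whole table, and the spread had 4 residual and 7.98 prior degrees of freedom. Changed genes had an adjusted p below 0.01, and DEGs in addition a change over 2-fold. The steps were tested on simulated data. Named genes were all members, DEGs of each list or otherwise up to 3 rises and 3 falls with at least 5 CPM, and the 3 genes most alike to each DEG member. Lengths and positions were those of GENCODE for GRCh37, to which 13025 genes (94.1%) were matched. Alternatives changed the pseudocount, filter, scaling, model, threshold and libraries. Further software was Python 3.11.15 with matplotlib 3.10.9, scipy 1.17.1, pandas 2.3.3 and numpy 2.4.6. Some items are not reported here.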

Additional observations from a re-analysis of the deposited data

Results flagged for a closer look

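The response to pLOC-*MALINC1* differed between MCF10A and DCIS.COM by the test of the difference itself for 7 members. The difference in log2 fold change, DCIS.COM minus MCF10A, was -0.5239 for *ITGA3*, -0.4942 for *ITGA6*, -0.301 for *ITGB4* and -1.663 for *ITGB2*. It was 0.3835 for *ITGB1*, 0.5913 for *ITGB6* and 0.4335 for *ITGB8*. Over all genes 35.9% passed this test.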

How the results depend on the processing

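Log2 fold changes of the members were recomputed under up to 22 alternative settings, 8 of which left out 1 library. Over all members and comparisons 1013 values kept the direction and the side of the threshold, 23 lost their call, 4 gained one and 10 turned sign. Many of the 1013 could not have turned sign. The TMM factors repeat the main scaling. Filters, the fit with no trend, the replicate blocks and libraries left out of other groups leave a log2 fold change as it was. No called change turned sign, since the 10 were of values that had not passed. These were *ITGB6* in DCIS.COM (0.0742 without normalization factors, and from -0.118 to 0.0317 without single libraries), the difference of the responses for *ITGA2* (-0.0023 with limma voom, and from -0.0787 to 0.0897 without single libraries) and that for *ITGA5* (0.032 without *RN7SL1* and *RN7SL2* in the totals, 0.0867 without normalization factors, and from -0.107 to 0.0222 without single libraries). Leaving out *RN7SL1* and *RN7SL2* moved the median log2 difference of all genes between the lines to 0.14 and 0.18, and totals without normalization factors moved the DCIS.COM vector comparison to 0.13, the difference of the responses to 0.12 and the line comparisons to 0.10 and 0.20. In MCF10A the 761 DEGs became 485 with at least 5 CPM in 2 libraries, 416 with a pseudocount of 1 CPM, 455 with a replicate block of crossed numbers and 1814 at 1.5-fold, where 6 members were DEGs. Its 5485 changed genes became 3101 with only the 4 libraries of the comparison and 1962 with the crossed block. In DCIS.COM the 4592 changed genes became 2915 with no trend and 2559 with only the 4 libraries, where 4 members passed, and the 627 DEGs became 368 with a pseudocount of 1 CPM and 1317 at 1.5-fold. For the difference of the responses, 0 members were DEGs with a pseudocount of 0.5 or 1 CPM, and at 1.5-fold 2 members and 2445 genes were. At 1.5-fold the line comparisons had 6484 and 6145 DEGs. Without single libraries the DEGs ranged from 679 to 752 in MCF10A and from 531 to 633 in DCIS.COM, and the members that passed from 7 to 8 in DCIS.COM.

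The replicate numbers showed no clear pairing of the libraries. The deviations of same-numbered libraries correlated by -0.13 (MCF10A, pLOC-empty and pLOC-*MALINC1*), 0.12 (DCIS.COM) and between -0.10 and 0.11 (other pairs of groups). With 2 libraries in each group, such values do not settle whether same-numbered libraries were handled together. With the replicate number as a block, the DEGs numbered 759 in MCF10A, 634 in DCIS.COM and 1278 for the difference, and no call of a member changed. With crossed numbers in MCF10A, chosen after seeing the data, *ITGA5* no longer passed there (adjusted p = 0.0105). The edgeR and DESeq2 tests that had been listed as alternatives were not run, because the deposited unit is log2 CPM. Depth limits *ITGB2* most, which had 13 and 15 reads in DCIS.COM with pLOC-*MALINC1*.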

Other observations

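The genes around the integrins also differed between the lines with the empty vector, where 37.9% of all genes were higher and 36% lower in DCIS.COM. Of 14 activators and inactivators 4 were higher and 10 lower, of 27 focal adhesion genes 4 were higher and 17 lower, and of 7 hemidesmosome partners 0 were higher and 5 lower. Of 21 matrix ligands 8 were higher and 12 lower, of 12 cell-surface and latent TGFB ligands 5 and 5, of 14 membrane partners 4 and 6, and of 7 other integrin subunits 2 and 2. *FLNA*, the actin crosslinker filamin A that binds beta chains, stood at 1458 and 1538 CPM in MCF10A and at 11.1 and 10.8 CPM in DCIS.COM (log2 difference -7.08). *FN1* differed by -5.25 on the log2 scale and *KRT14* by -5.46. *TLN2* was higher in DCIS.COM, with a log2 difference of 2.57. Cell line and culture medium cannot be told apart in these values.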
